A study of Danio rerio with 12 samples.

Results

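The genes described here are the zebrafish receptors for colony-stimulating factor 1 (csf1ra and csf1rb), their ligands (csf1a, csf1b and il34), the myeloid transcription factor genes spi1a, spi1b and irf8, and the macrophage genes mpeg1.1 and marco. They were found by symbol in the deposited tables, and all 10 were present among 30238 Entrez gene IDs. The group was chosen by its biology and with the genotype difference of csf1rb already known. The genotype values below are therefore given as a description, with no p-value for any of these 10 genes, and the counts of calls among them support nothing. The tests reported concern the order of levels between genes and the relations between genes across kidneys. Those over all 12 kidneys pool both genotypes, so tests that involve csf1rb or spi1b also draw on the genotype gap of that gene. Correlations within the 9 heterozygous kidneys do not draw on such a gap.

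RNA from whole kidneys of adult zebrafish was sequenced in 9 samples from fish heterozygous for a knockout of pdx1 and in 3 samples from wild-type fish. The gene pdx1 encodes a homeobox factor of pancreas development and beta cells, and the labels name no allele, age, sex, family, batch or pooling. Whether a sample was 1 fish was not stated, so p-values take the sample, not the fish, as the unit. Totals ranged from 16041392 to 19483852 estimated counts per library. The pdx1 transcript itself was near the limit of detection, with estimated counts of 0 to 10.4 in the heterozygous kidneys, 5 of which had 0, and of 5.6 to 14 in the wild-type kidneys. Tubule genes were present in every library, led by cdh17, which encodes a kidney cadherin and had 620 to 1075 TPM in heterozygous and 782, 1091 and 1163 TPM in wild-type kidneys. TPM is the deposited level per transcript length, and CPM (counts per 1e+06 counts) is the estimated count scaled to library size only.

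The CSF1 receptor is a class III receptor tyrosine kinase that carries the survival and differentiation signal of macrophages, microglia and osteoclasts. It binds CSF1 and a separate ligand, interleukin 34. Zebrafish kept a pair of receptor genes and a pair of CSF1 genes from the genome duplication of teleost fish. The copy csf1ra is known from the panther mutant, which lacks the yellow xanthophores of the stripe pattern, and it also acts in macrophages, while csf1rb is known from zebrafish blood progenitors and macrophages of blood stem cell origin. In adult fish the kidney is the main blood-forming organ, so these libraries hold tubule, vessel, stromal and blood cell RNA together. Fewer cells of a type and less RNA per cell cannot be told apart in such bulk samples.

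Across all 12 kidneys, csf1rb was the more abundant receptor copy. Its level was 24.5, 27.1 and 46.0 TPM (lowest, median and highest) in heterozygous kidneys and 70.5, 62.4 and 48.1 TPM in wild-type replicates 1 to 3. That of csf1ra was 14.9995, 18.8 and 31.0 TPM in heterozygous kidneys and 13.7, 26.3 and 19.7 TPM in wild-type replicates 1 to 3. The TPM of csf1rb exceeded that of csf1ra in 11 of 12 kidneys, by 0.90 ± 0.65 on the log2 scale (mean ± SD, n = 12), a ratio of 1.87. The mean difference was told apart from 0 (exact two-sided sign-flip permutation test, p = 0.000977; adjusted over 3 pairs of copies, p = 0.00146). The exception was heterozygous replicate 2, in which csf1ra was at its highest and the ratio of csf1rb to csf1ra was 0.863. Because the effective length of csf1rb was 1.06 times that of csf1ra, the comparison in CPM gave nearly the same ratio, 1.97.

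Set out by genotype, the 2 copies differed in how far the groups lay apart. The ratio of csf1rb to csf1ra in TPM averaged 1.58 in heterozygous kidneys and 3.10 in wild-type kidneys, or 0.66 ± 0.47 (SD, n = 9) against 1.63 ± 0.63 (SD, n = 3) on the log2 scale. Its highest heterozygous value, 2.94 in replicate 5, lay between the wild-type values of 2.37, 2.44 and 5.14, so the groups overlapped. Wild-type replicate 1, with the ratio of 5.14, had both the highest csf1rb and the lowest csf1ra of its group. The TPM of both copies summed to 39.5 to 61.6 in heterozygous kidneys and 67.8 to 88.7 in wild-type kidneys. Within that sum csf1rb made up 46.3% to 74.6% in heterozygous and 70.4% to 83.7% in wild-type kidneys.

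**Figure D1:**
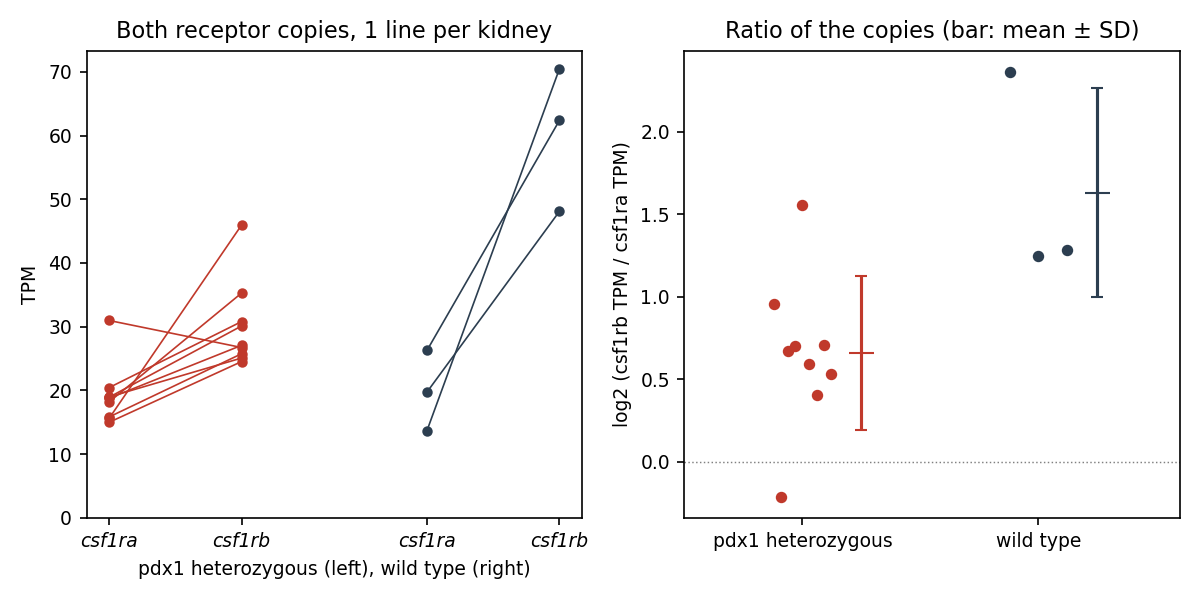
Left, TPM of csf1ra and csf1rb joined by 1 line per kidney, for pdx1 heterozygous (red, n = 9) and wild-type (dark, n = 3) kidneys. Right, log2 of the csf1rb to csf1ra TPM ratio, 1 point per kidney with mean and SD; the line runs upward in 11 of 12 kidneys, and the group means are 0.66 and 1.63.

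For csf1rb itself, the fitted heterozygous level was 0.513 times the wild-type level. Levels were 76.8, 83.4 and 138 CPM (lowest, median and highest) in heterozygous kidneys and 215, 175 and 136 CPM in wild-type replicates 1 to 3. In CPM, 8 of 9 heterozygous kidneys lay below every wild-type kidney, and replicate 5, at 138 CPM, lay just above the lowest wild-type value. In TPM the groups did not overlap, with 46.0 as the highest heterozygous and 48.1 as the lowest wild-type value. The share of all genes whose groups did not overlap was not counted. The edgeR log2 fold change (heterozygous over wild type) was -0.96 ± 0.17 (approximate SE), from 89.8 ± 19.6 CPM (SD, n = 9) against 175 ± 39.8 CPM (SD, n = 3). The counts of csf1rb were whole numbers in all 12 libraries within a tolerance of 0.001, whereas those of csf1ra were fractional in all 12. Fractional estimates arise in kallisto where reads match more than 1 transcript, and the effect on csf1ra was not tested.

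For csf1ra, by contrast with its copy, the genotype means nearly coincided. It had 44.5, 51.2 and 86.5 CPM in heterozygous kidneys and 39.6, 69.9 and 52.7 CPM in wild-type replicates 1 to 3, a log2 fold change of 0.00 ± 0.20. The interval of 2 standard errors on each side ran from -0.40 to 0.40, so differences within that range are not told apart from 0 by these samples. With 1 kidney left out in turn, the value moved between -0.17 and 0.24.

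None of the 9 tested genes of the group passed the threshold of 0.05 after adjustment over all 23732 genes in edgeR, a fit in which 0.00421% of all genes passed. By DESeq2, 1 of the 9 passed (csf1rb), where 0.257% of all genes with an adjusted p did. At an unadjusted edgeR p under 0.05 the count was 2 of 9 (csf1rb and spi1b), where 5.68% of all genes passed. As the genes were chosen with this contrast in view, nothing is read from these counts. Of the 9, 4 were higher in heterozygous kidneys and 5 were lower. The median of their log2 fold changes was -0.02, where that of all tested genes was 0.01. The gene csf1a was outside the filter on low counts and was not tested.

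**Figure D2:**
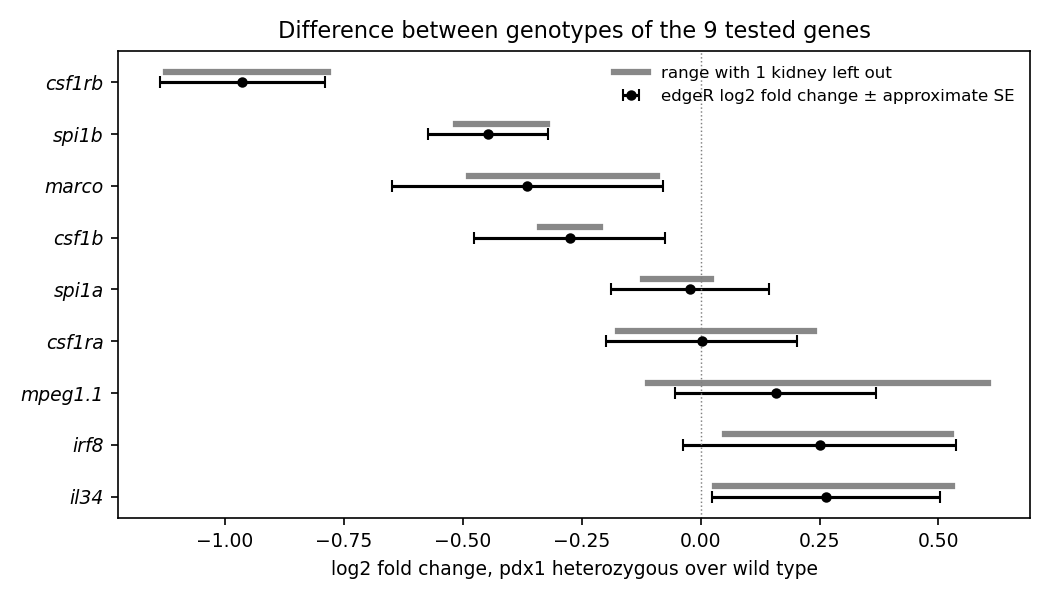
Log2 fold change of the 9 tested genes (x axis, heterozygous over wild type) with its approximate SE (black) and the range with 1 kidney left out in turn (grey). The gene csf1rb has the lowest value, -0.96, and csf1ra has 0.00.

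Among the ligands, csf1b carried nearly all of the CSF1 transcript. It had 41.6, 60.0 and 88.0 TPM in heterozygous kidneys and 75.0, 79.8 and 82.3 TPM in wild-type replicates 1 to 3. For csf1a the levels were 0.0930 to 0.546 TPM in heterozygous and 0.161, 0.0676 and 0.224 TPM in wild-type kidneys, and its estimated counts were 3 to 13 in heterozygous and 3, 2 and 7 in wild-type libraries. The TPM of csf1b exceeded that of csf1a in 12 of 12 kidneys, by 8.33 ± 0.80 on the log2 scale (mean ± SD, n = 12; exact two-sided sign-flip permutation test, p = 0.000488, the smallest it can give; adjusted over 3 pairs of copies, p = 0.00146). At counts this low the size of the ratio is loose, and a genotype difference of csf1a was not tested.

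In CPM, csf1b ran from 45.3 to 94.8 in heterozygous kidneys and lay between 81.2 and 83.6 in wild-type kidneys. Of the 9 heterozygous values, 7 lay below every wild-type kidney and 2 above. The log2 fold change was -0.28 ± 0.20. Interleukin 34, the second ligand of the receptor, is encoded by il34, which had 8.40, 11.4 and 17.5 TPM in heterozygous kidneys and 9.9973, 6.73 and 14.1 TPM in wild-type replicates 1 to 3. Its log2 fold change was 0.26 ± 0.24, and the groups overlapped. Leaving out wild-type replicate 2 gave 0.03, and leaving out replicate 3 of that group gave 0.53.

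The spi1 genes encode PU.1, the transcription factor that commits blood progenitors to myeloid fates. In heterozygous kidneys spi1b had 130, 146 and 190 CPM, and in wild-type replicates 1 to 3 it had 191, 183 and 240 CPM. As for csf1rb, 8 of 9 heterozygous kidneys lay below every wild-type kidney, with replicate 5 as the exception. The log2 fold change of spi1b was -0.45 ± 0.13, and it lay between -0.51 and -0.32 with 1 kidney left out in turn. The other copy, spi1a, had 108, 124 and 211 CPM in heterozygous kidneys and 136, 142 and 132 CPM in wild-type replicates 1 to 3, a log2 fold change of -0.02 ± 0.17. In both the receptor and the spi1 pair the b copy had the negative value and the a copy a value near 0, and the difference between copies was not tested.

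Per length, the spi1 copies lay at similar levels. The TPM of spi1b was 68.9, 83.1 and 107 in heterozygous kidneys and 105, 109 and 143 in wild-type kidneys, and that of spi1a 58.3, 73.4 and 122 in heterozygous and 76.7, 86.4 and 79.5 in wild-type replicates 1 to 3. The log2 difference of spi1b over spi1a was 0.25 ± 0.34 (mean ± SD, n = 12), positive in 9 of 12 kidneys (exact two-sided sign-flip permutation test, p = 0.0278; adjusted over 3 pairs of copies, p = 0.0278). This call ended without wild-type replicate 1, 2 or 3 and without heterozygous replicate 5 or 8, with an exact permutation p between 0.0508 and 0.0557. By genotype, the log2 difference was 0.15 ± 0.30 (SD, n = 9) in heterozygous and 0.55 ± 0.27 (SD, n = 3) in wild-type kidneys. The pooled value thus also draws on the genotype gap of spi1b. Counts of both spi1 genes were fractional in all 12 libraries.

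The interferon regulatory factor gene irf8, which directs myeloid progenitors towards macrophages rather than neutrophils, had 37.5, 43.2 and 103 CPM in heterozygous kidneys and 35.4, 56.4 and 34.6 CPM in wild-type replicates 1 to 3. Its log2 fold change was 0.25 ± 0.29, and it was 0.05 without heterozygous replicate 2 and 0.53 without wild-type replicate 2. Of the tested members it varied most among heterozygous kidneys, with a coefficient of variation of 40.6%, and replicate 2 had the 103 CPM. The perforin-2 gene mpeg1.1, a macrophage marker that adult zebrafish B cells also express, had 30.4, 37.2 and 41.8 CPM in heterozygous kidneys and 19.1, 50.0 and 29.2 CPM in wild-type replicates 1 to 3. All 9 heterozygous values lay inside the wild-type range, and the coefficient of variation was 11.04% in heterozygous and 48.1% in wild-type kidneys. The direction of mpeg1.1 rested on single wild-type kidneys: its log2 fold change of 0.16 ± 0.21 became -0.11 once wild-type replicate 1 was left out, and 0.60 once replicate 2 of that group was left out instead.

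The scavenger receptor gene marco, by which macrophages bind bacteria and particles, was the most abundant of the 10 genes. It had 283, 344 and 728 CPM in heterozygous kidneys and 462, 755 and 480 CPM in wild-type replicates 1 to 3, a log2 fold change of -0.36 ± 0.28. The heterozygous kidneys lay in 2 ranges, with replicates 1, 3, 4, 6 and 9 between 283 and 344 CPM and replicates 2, 5, 7 and 8 between 474 and 728 CPM. All 3 wild-type kidneys lay above the lower of these ranges. Without wild-type replicate 2 the log2 fold change was -0.09.

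In order of mean log2 TPM, the 10 genes ran marco, spi1b, spi1a, csf1b, irf8, csf1rb, csf1ra, mpeg1.1, il34 and csf1a. Averaged over the 12 kidneys, marco had 345 TPM and ranked 211th from the top among the 30238 genes, while il34 had 11.6 TPM and csf1a 0.231 TPM. Of the 9 neighbouring pairs in this order, 6 had a mean log2 difference told apart from 0 (exact two-sided sign-flip permutation tests, adjusted p from 0.00220 to 0.0417 over 9 pairs). The pairs that did not were spi1a with csf1b (log2 difference 0.24 ± 0.38, adjusted p = 0.0785), irf8 with csf1rb (0.05 ± 0.77, adjusted p = 0.810) and csf1ra with mpeg1.1 (0.12 ± 0.29, adjusted p = 0.211). The step from spi1b to spi1a was the smallest that passed, and leaving out single kidneys ended it, as above.

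**Figure D3:**
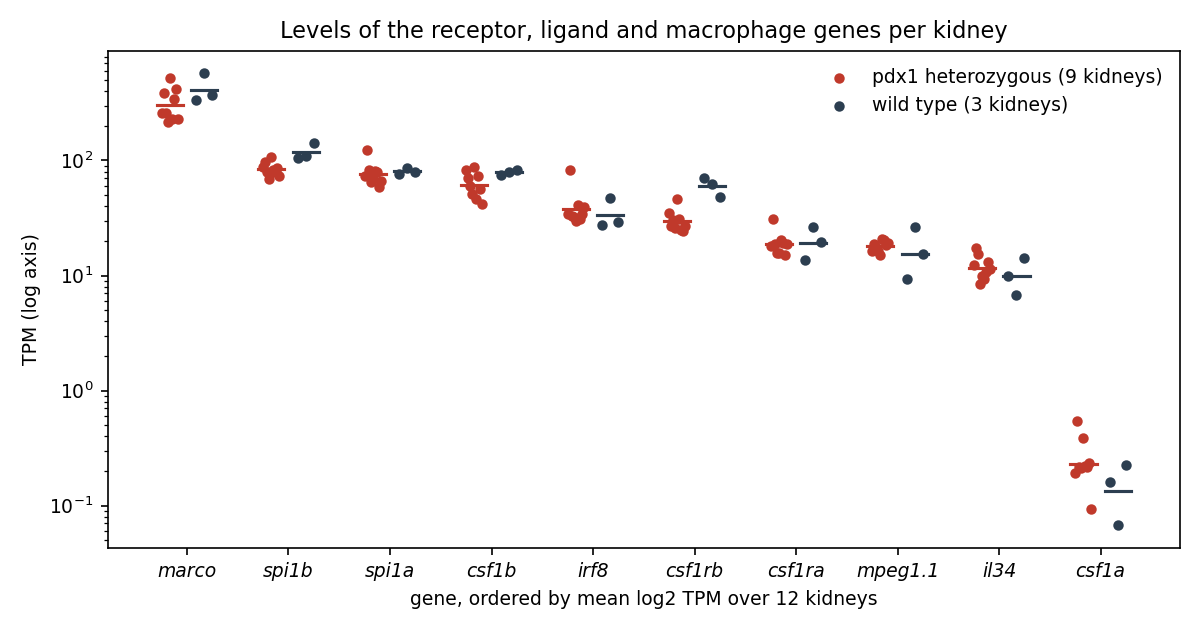
TPM of each gene in each kidney on a log axis, with pdx1 heterozygous kidneys (red, n = 9) left of wild-type kidneys (dark, n = 3) and lines at the mean of log2 TPM. The levels run from marco, at 216 to 572 TPM, down to csf1a, below 1 TPM in all 12 kidneys.

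Among the heterozygous kidneys, a pair of samples stood out, and they did so for different genes. Replicate 2 had the highest csf1ra (86.5 CPM), spi1a (211 CPM), irf8 (103 CPM) and il34 (22.4 CPM) of its group. Replicate 5 had the highest csf1rb (138 CPM), csf1b (94.8 CPM), spi1b (190 CPM) and marco (728 CPM), and the lowest csf1ra, irf8 and mpeg1.1. For csf1ra the margin was small, at 44.5 CPM against 44.8 CPM in replicate 8. In TPM replicate 8 had the lowest csf1ra, at 14.9995 against 15.6 in replicate 5. Summed TPM of other macrophage and dendritic cell genes was 8308 in replicate 2, the highest of all 12 kidneys, and 6597 in replicate 5. Myeloid transcription factor genes summed to 782 TPM in replicate 2, also the highest of the 12, and 480 TPM in replicate 5. Osteoclast genes summed to 284 TPM in replicate 2, likewise the highest, and 217 TPM in replicate 5, the next highest of the 12. The 10 genes described summed to 901 TPM in replicate 5, the highest of the heterozygous kidneys, and to 855 TPM in replicate 2, the next highest of them. In these sums marco alone gave 521 TPM in replicate 5 and 388 TPM in replicate 2, so it weighs heavily in the ranking. The summed TPM of the markers of other blood cells also differed between these samples. B cell markers summed to 202 TPM in replicate 2, the highest of all 12 kidneys, and to 144 TPM in replicate 5, and T cell markers to 121 TPM, again the highest of the 12, and 46.0 TPM. Neutrophil markers summed to 3037 TPM in replicate 2 and 5413 TPM in replicate 5, the highest of the heterozygous kidneys. Erythroid markers differed by more, at 13383 TPM in replicate 2, the lowest of the heterozygous kidneys, and 55599 TPM in replicate 5, the highest of them. The part of these other cells in the levels of the 10 genes was not tested.

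Relations between the genes were computed as correlations of log2 CPM for all 36 pairs of the 9 tested genes, and p-values were adjusted over the 36. Over the 12 kidneys, 1 pair passed, csf1ra with irf8 (Pearson r = 0.87, permutation p = 0.00103, adjusted p = 0.0371; Spearman rho = 0.64, permutation p = 0.0294, adjusted p = 0.151). Without heterozygous replicate 2 and wild-type replicate 2, the kidneys farthest from the median of csf1ra, r was 0.42, so the relation rested on those samples. Within the 9 heterozygous kidneys r was 0.92 (exact permutation p = 0.0174, adjusted p = 0.157), and it was 0.14 without replicates 2 and 5. For csf1ra with spi1a, r was 0.80 over 12 kidneys (permutation p = 0.00546, adjusted p = 0.0983; rho = 0.66, permutation p = 0.0234, adjusted p = 0.151) and 0.27 without heterozygous replicate 2 and wild-type replicate 2. This pair passed within the 9 heterozygous kidneys, with r = 0.95 (exact permutation p = 0.00236, adjusted p = 0.0283) and rho = 0.83 (exact permutation p = 0.00827, adjusted p = 0.0969), and r was 0.75 without replicates 2 and 5. The next highest r over 12 kidneys, 0.73 for spi1a with irf8 (permutation p = 0.0526, adjusted p = 0.218; rho = 0.11, permutation p = 0.733, adjusted p = 0.947), became -0.00 without heterozygous replicates 2 and 8.

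For csf1rb the lowest correlations were with mpeg1.1 and il34. With mpeg1.1, r was -0.53 over 12 kidneys (permutation p = 0.0790, adjusted p = 0.284; rho = -0.53, permutation p = 0.0794, adjusted p = 0.260). Within the 9 heterozygous kidneys r was -0.82 (exact permutation p = 0.00135, adjusted p = 0.0243) and rho was -0.82 (exact permutation p = 0.0108, adjusted p = 0.0969), with r = -0.56 once replicates 1 and 5 were left out. The call ended on log2(TPM + 1), where r within the heterozygous kidneys was -0.66 (exact permutation p = 0.0497, adjusted p = 0.296; rho = -0.40, exact permutation p = 0.291, adjusted p = 0.749), and r was 0.21 without replicates 1 and 5. The kidneys with more csf1rb, replicates 5 and 1, thus had the least mpeg1.1 of the heterozygous group, at 30.4 and 31.4 CPM. With il34, r was -0.45 (permutation p = 0.145, adjusted p = 0.401; rho = -0.37, permutation p = 0.239, adjusted p = 0.573), and -0.11 without wild-type replicates 1 and 2. The next lowest r, -0.40 for spi1b with mpeg1.1 (permutation p = 0.196, adjusted p = 0.505; rho = -0.41, permutation p = 0.192, adjusted p = 0.4928), became 0.09 without wild-type replicates 1 and 3.

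Between the 2 receptor copies no relation was detected. Over 12 kidneys r was -0.24 (permutation p = 0.465, adjusted p = 0.881) and rho was -0.34 (permutation p = 0.284, adjusted p = 0.602), with r = -0.66 without heterozygous replicate 2 and wild-type replicate 2. Within the 9 heterozygous kidneys r was -0.40 (exact permutation p = 0.191, adjusted p = 0.457) and rho -0.45 (exact permutation p = 0.230, adjusted p = 0.692), and r was -0.01 without replicates 2 and 5. Of the 3 pairs that passed within the heterozygous kidneys, the remaining one was spi1b with marco. Its r was 0.91 (exact permutation p = 0.00121, adjusted p = 0.0243) and its rho 0.85 (exact permutation p = 0.00607, adjusted p = 0.0969). Without replicates 2 and 5, r was 0.83. As marco lay there in 2 ranges of 5 and 4 kidneys, too few for a correlation within either, a relation within a range was not tested. Of these 3 pairs, csf1ra with spi1a also passed on log2(TPM + 1), and the other 2 did not. All pairs share the library and its composition, and a gene's level depends on which other cells a library holds.

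**Figure D4:**
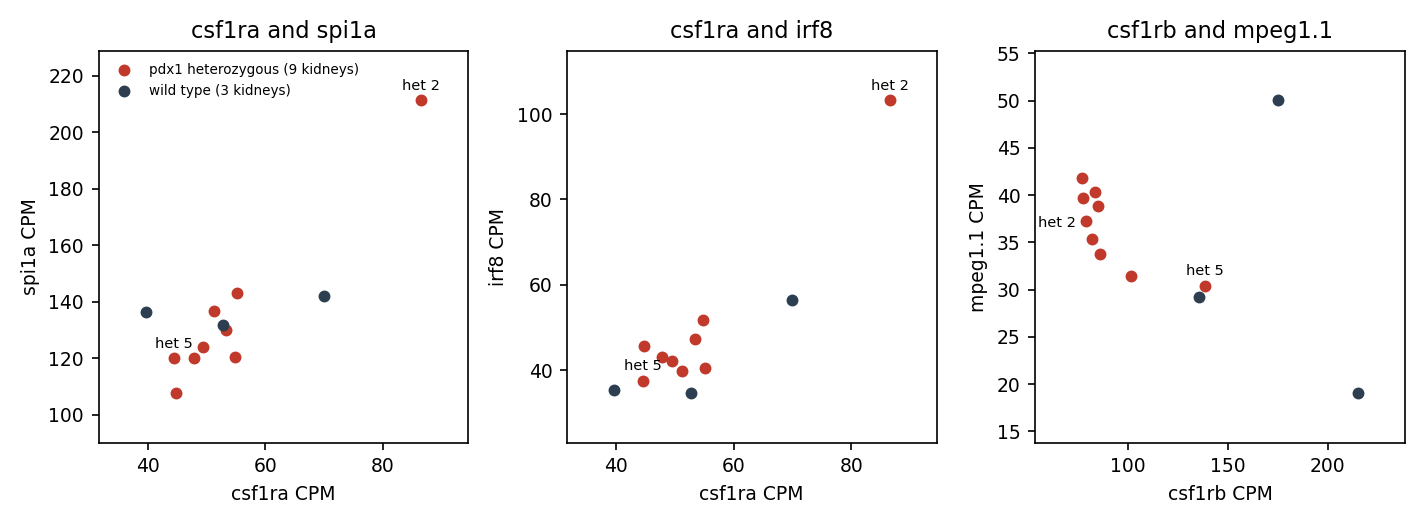
CPM of spi1a against csf1ra, of irf8 against csf1ra and of mpeg1.1 against csf1rb, 1 point per kidney, pdx1 heterozygous in red (n = 9) and wild type in dark (n = 3), with heterozygous replicates 2 and 5 marked. Replicate 2 lies alone at the upper right of the first and second panels, at 86.5 CPM of csf1ra, and replicate 5 lies to the right of the other heterozygous kidneys in the third.

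The genes whose pattern over the 12 kidneys was most like each receptor copy differed between the copies. By Pearson r of log2 CPM among 14628 genes, csf1ra was most like cbl, an E3 ubiquitin ligase gene (r = 0.92), yes1, a Src family kinase gene (0.92), zfp36l1a, which encodes an RNA-binding protein (0.90), cmklr1, the chemerin receptor gene (0.90), and dnaaf1, an assembly factor gene of ciliary dynein (0.87). Within the 9 heterozygous kidneys these 5 values lay between 0.81 and 0.95. The gene csf1rb was most like actb2, a cytoplasmic actin gene (0.90), selp, the P-selectin gene (0.89), itpr3, an inositol trisphosphate receptor gene (0.88), nckap1l, an actin regulator gene of blood cells (0.87), and krt18b, a keratin gene (0.87). Within the 9 heterozygous kidneys these 5 values were lower, between 0.47 and 0.79. The 9 are among the 12 kidneys by which the genes were picked, so neither range is independent of that choice. How far the values for csf1ra rest on heterozygous replicate 2, where it was highest, was not tested. How high the best r among 14628 genes would lie by chance was not tested either. Because likeness was taken over both genotypes, it draws on the genotype gap of each receptor. The log2 fold changes of the genes near csf1rb, from -0.91 to -0.25, therefore follow in part from how they were picked. The same holds for the genes near csf1ra, with log2 fold changes between -0.02 and 0.08.

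The other genes of the pathway were taken from 5 lists, and 129 of their genes were tested. In edgeR, 0 of the 129 passed, where 0.00421% of all genes did. At an unadjusted p under 0.05 there were 14, or 10.9%, where 5.68% of all genes passed. DESeq2 called 1, apoeb, or 0.775%, where it called 0.257% of all genes. This apolipoprotein E gene, a marker of fish microglia, had 13.5 ± 4.35 CPM in heterozygous (SD, n = 9) and 38.3 ± 27.0 CPM in wild-type kidneys (SD, n = 3). The choice of apoeb followed from that call, and its edgeR adjusted p was 0.514. Of 30 genes that relay the receptor signal, 10 were higher and 20 lower in heterozygous kidneys (median log2 fold change -0.04). The most abundant were rac2, a GTPase of leukocyte migration (0.00 ± 0.16), ptpn6, which encodes the phosphatase SHP-1 (0.23 ± 0.15), and inpp5d, which encodes the lipid phosphatase SHIP1 (-0.20 ± 0.16). At an unadjusted p under 0.05, 0 genes of this list were higher and 2 lower.

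Relatives of the CSF1 receptor in class III, with their ligands, had small differences. Of 8 tested genes 2 were higher and 6 lower (median log2 fold change -0.08). The most abundant were the platelet-derived growth factor gene pdgfba (-0.09 ± 0.11), the stem cell factor receptor gene kita (0.03 ± 0.12) and its ligand gene kitlga (-0.05 ± 0.14). Of the 8, 0 had an unadjusted p under 0.05 in edgeR, where 5.68% of all genes did.

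Other macrophage and dendritic cell genes were higher in heterozygous kidneys for 37 and lower for 21 of 58 tested genes (median log2 fold change 0.06). In edgeR 0 passed, and 6 were higher and 3 lower at an unadjusted p under 0.05, where 5.68% of all genes passed. The most abundant were lgmn, which encodes the lysosomal protease legumain (0.04 ± 0.28), and the invariant chain genes cd74a (0.71 ± 0.23) and cd74b (0.42 ± 0.22) of antigen presentation, whose edgeR adjusted p lay between 0.755 and 0.999. The summed TPM of this list was 5885 to 8308 in heterozygous and 5503 to 7045 in wild-type kidneys. The median of these sums was 6597 TPM in heterozygous and 6517 TPM in wild-type kidneys, and the groups overlapped. In heterozygous kidneys the median levels of lgmn, cd74a and cd74b were 1313, 1349 and 845 TPM, so these genes weigh heavily in the sums. Which cells their RNA came from was not tested, and the sums are no measure of macrophages alone. Of 25 myeloid transcription factor genes 7 were higher and 18 lower, with a median of -0.08, led in level by id2a (-0.08 ± 0.24), cebpa, a factor of granulocyte and monocyte progenitors (-0.42 ± 0.25), and mafba, a macrophage factor (-0.07 ± 0.11). In edgeR 0 of these 25 had an unadjusted p under 0.05, beside the 5.68% of all genes.

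Osteoclasts also depend on the CSF1 receptor. Of 10 tested osteoclast genes 5 were higher and 5 lower (median log2 fold change -0.01). At an unadjusted p under 0.05 in edgeR 2 were higher and 1 lower, where 5.68% of all genes passed. The most abundant were ctsk, the cathepsin K gene (0.44 ± 0.14), tcirg1b, a proton pump subunit gene (-0.38 ± 0.14), and tnfrsf11a, which encodes the receptor RANK (-0.03 ± 0.21), with edgeR adjusted p between 0.726 and 0.999.

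Markers of other cells that use the same genes were followed beside these values. Neutrophils express spi1b, and 9 of their 14 tested markers were lower and 5 higher, with a summed TPM of 2261 to 5413 in heterozygous and 3211 to 6591 in wild-type kidneys. The most abundant were npsn (edgeR log2 fold change -0.26 ± 0.31), the lysozyme gene lyz (-1.32 ± 0.40, adjusted p = 0.707) and mpp1 (-0.01 ± 0.08). Over the 14 the values ran from -1.32, that of lyz, to 0.71. The level of lyz was 410, 597 and 1615 TPM (lowest, median and highest) in heterozygous and 1097, 2069 and 2580 TPM in wild-type kidneys. Of 14 endothelial markers 10 were lower and 4 higher, and their summed TPM, 281 to 415 in heterozygous and 424 to 491 in wild-type kidneys, did not overlap between groups. Among the 15 lists, the sums of every other list overlapped. The gap for endothelial markers, from 415 to 424 TPM, rests on 3 wild-type kidneys. How often sums of other genes would fail to overlap was not counted. Log2 fold changes of the 14 endothelial markers ran from -0.54 to 2.22. Blood stem cell markers, of which 7 of 10 were lower, summed to 245 to 303 TPM in heterozygous and 246 to 349 TPM in wild-type kidneys. The part of these cells in the values of csf1rb and spi1b was not tested.

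B cell markers were lower for 9 and higher for 4 of 13, and summed to 97.3 to 202 TPM in heterozygous and 149 to 182 TPM in wild-type kidneys. T cell markers were higher for 13 of 13, with sums of 39.6 to 121 TPM in heterozygous and 31.7 to 75.6 TPM in wild-type kidneys. Xanthophore markers, which bear on csf1ra, were at low levels, with sums of 27.0 to 46.9 TPM in heterozygous and 35.2 to 45.8 TPM in wild-type kidneys. Sums of melanophore and iridophore markers were 30.7 to 58.3 TPM in heterozygous and 41.8 to 46.6 TPM in wild-type kidneys. The most abundant gene in them, tfec, also stands on the list of myeloid transcription factor genes. It had 17.6 to 35.2 TPM in heterozygous and 25.2 to 29.2 TPM in wild-type kidneys, so these sums are no measure of pigment cells alone. Erythroid markers varied most, from 13383 to 55599 TPM in heterozygous and from 11188 to 57637 TPM in wild-type kidneys, and thrombocyte markers summed to 158 to 201 TPM and 196 to 227 TPM. No gene of any list was at 0 in all 12 libraries, and edgeR called 0 genes of these lists.

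Ribosomal RNA, as counted for its single annotated gene, took a share that also moved with genotype, at 5.71% to 9.10% in heterozygous and 4.101% to 5.64% in wild-type libraries. With that gene removed before scaling, the log2 fold change of csf1rb was -0.96, the same as with it. Scaling absorbs the removal of a single gene, so this value does not test what lies behind the share. The lowest heterozygous share, 5.71%, was that of replicate 5, the exception named above for csf1rb and spi1b. The part of the share's difference in the values of these genes was not tested.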

How the data were processed

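RNA of 12 kidney samples (9 pdx1 heterozygous, 3 wild type) was processed by the authors with Trim Galore 0.6.4 and kallisto, listed as version 0.4.6, on build GRCz11, per the submitters' processing notes. How transcripts were summed to genes, and the annotation, are not given in the sources used here. Deposited estimated counts are not normalized, and the deposited TPM values are scaled by the authors for length and library. Reads matching more than 1 transcript are apportioned by kallisto, which makes near-identical copies uncertain, and use of the strand was not stated. Symbols were taken from RefSeq genes on assembly GRCz12tu, used for names alone, and covered 25812 of 30238 IDs, the 10 genes described among them.

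Estimated counts were rounded and tested in R 4.3.3 with the edgeR 4.0.16 quasi-likelihood test (filterByExpr, minimum count 10, TMM scaling, all 12 samples, no covariate) with Benjamini-Hochberg adjustment over 23732 genes at 0.05. Approximate standard errors were computed as the absolute log2 fold change over root F. Log2 CPM used a prior count of 2. Levels of genes were compared on log2 TPM by exact sign-flip tests over the 4096 sign patterns. Correlations used 100000 permutations, or all 362880 orders of 9 samples. Alternatives were RLE scaling, no filter, DESeq2 1.42.0, limma 3.58.1 on log2(TPM + 1) and log2(TPM + 0.1), the replicate block, removal of ribosomal RNA and each sample left out. The edgeR and small-sample tests were checked on simulated data.

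Genes were named by rule: all 10 members, the 3 genes with the highest mean TPM of each list together with any called, and the 5 genes most like each receptor with a mean CPM of at least 2. The rule also took the 3 highest and 3 lowest correlations and that of the receptor copies. The values of list genes outside the pathway lists, other than cdh17, npsn, lyz, mpp1 and tfec, are given as sums. The members and lists were chosen with earlier results of these data known. Some genes stand on more than 1 list.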

Additional observations from a re-analysis of the deposited data

Results flagged for a closer look

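In 4 of the 10 genes, the highest heterozygous kidney lay far from the others of its group, with a gap to the nearest above Dixon's 95% critical value for 9 samples. Heterozygous replicate 2 was set apart in csf1ra (86.5 CPM), spi1a (211 CPM) and irf8 (103 CPM). Heterozygous replicate 5 was set apart in csf1rb (138 CPM). Chance sets about 1 in 20 groups apart in this way, and the 3 genes of replicate 2 come from 1 library.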

How the results depend on the processing

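The count of genes called between genotypes, 1 in edgeR, was 61 by DESeq2, 0 with the replicate block and 1 to 4 with 1 sample left out, where it was 2 without heterozygous replicate 2 and 4 without heterozygous replicate 5. The count called from the pathway lists, 0 in edgeR, was 1 by DESeq2. Over 19 alternatives the log2 fold change of csf1rb, for which the genes were chosen, ranged from -1.12 to -0.78, and that of spi1b from -0.51 to -0.32. Those of csf1ra (-0.17 to 0.24), spi1a (-0.12 to 0.16) and mpeg1.1 (-0.11 to 0.60) took both signs. For mpeg1.1 the negative value, -0.11, came without wild-type replicate 1, as above, and the cause of the shifts was not tested. The level of csf1rb over csf1ra passed in 14 of 14 alternatives. That of spi1b over spi1a was 0.19 to 0.30 with 1 sample left out and lost its call in 5 of those 12 fits, which hold fewer samples. On log2(TPM + 1), csf1ra with spi1a passed over 12 kidneys (r = 0.83, permutation test, adjusted p = 0.0180). Within the heterozygous kidneys, 2 of the 3 pairs that passed on log2 CPM did not on log2(TPM + 1), namely csf1rb with mpeg1.1 (permutation test, adjusted p = 0.296) and spi1b with marco (permutation test, adjusted p = 0.0845).

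Correlations of deviations were -0.22, -0.16 and 0.10 for samples with the same replicate number, 1 to 3. Between samples with different numbers they were -0.16 to 0.24. With 3 wild-type kidneys these values cannot settle whether the numbers pair kidneys, which the labels do not state. Depth limits csf1a, where a floor of 3 counts corresponds to 0.154 to 0.187 CPM.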
